A study of Arabidopsis thaliana with 6 samples.

Results

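The comparison set whole Arabidopsis thaliana plants of a line overexpressing OCTOPUS against wild-type plants, with 2 arrays for each. It took in every probe set of the array that is not a hybridisation control, which left 22746 of 22810, including those whose transcript lay near the floor of the measurement in wild type. Of these probe sets, 13513 name 1 gene, 503 name several and 8730 are not listed in the gene table used here, so that values of the last 2 kinds were tested but carry no gene name.

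The wild type is labelled WS and described as Wassilewskija, and the overexpressor carries the name 35SDYG25, in which 35S is the usual name of a promoter active in nearly all plant tissues. A further 2 arrays of the octopus mutant DYG25 entered the fit to help estimate the spread. The labels give the accession of neither line with the construct or the mutation, nor the age of the plants, nor whether the overexpressor is a single transformant. All plants grew on MS/2 medium at 20 °C and 70% hygrometry with no treatment. Nothing says that the 2 samples of a group were grown apart, so a p-value here is read against sample-to-sample spread that could be wholly technical.

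The product of OCTOPUS (OPS, locus AT3G09070) lies in the plasma membrane at one end of the young phloem cell and is required for the continuous differentiation of the protophloem, the first sugar-conducting tissue of the root and of the veins. In Arabidopsis it is known to bind BIN2, a kinase that holds back brassinosteroid signalling, and to keep it at the membrane. Brassinosteroids act in part through genes that loosen the cell wall, such as expansins and xyloglucan-modifying enzymes, and salicylic acid and wall damage act in part through secreted defence proteins and receptor kinases. A whole plant holds few phloem cells among many others. In such bulk samples, more cells of a type and more RNA per cell cannot be told apart.

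Levels are log2 GCRMA values, so a difference of 1 is 2-fold. The 2 overexpressor arrays correlated at 0.991 and the 2 wild-type arrays at 0.995, and replicates differed by a median of 0.15 in the overexpressor and of 0.08 in wild type. The 25th percentile of overexpressor array 2 was 2.70, against 2.54 to 2.60 on the other 5 arrays. The signal difference between the 3′ and 5′ probes of control transcripts, a measure of RNA integrity and of amplification, was larger on both overexpressor arrays than on both wild-type arrays for 5 of 6 control pairs, for example 1.92 and 1.72 against 1.42 and 1.12 for GAPDH. Its part in the results below was not tested. Markers of leaf and of root were well above the floor, with RCA, the activase of Rubisco, at 13.67 and 13.65 in wild type and PYK10, a root β-glucosidase, at 12.37 and 12.50. RCA was at 13.67 and 13.65 in the overexpressor as well, and PYK10 at 12.10 and 11.93 (limma adjusted p = 0.183). The 3 root markers measured by name all lay below 0, as did 39.3% of all probe sets. Their median difference was -0.42 (-0.505 to -0.335 with 1 array left out), with EXPA7 at -0.55 and EXPA18 at -0.04 (limma adjusted p = 0.321 and 0.899). Whether the share of root differed between the samples was not tested. CLV3, a marker of the shoot meristem, stood at 2.19 and 2.17, near the floor.

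In the overexpressor 226 probe sets passed an adjusted p below 0.05 in limma's test across all 22746 probe sets, which is 0.994% of those tested. Of these, 170 were higher than in wild type (0.747%) and 56 were lower (0.246%). The rises were larger than the falls: 70 rises and 2 falls were at least 4-fold, and 14 rises and 0 falls were at least 16-fold, with limma counting 3301 probe sets at an unadjusted p below 0.05. The median rise was 1.74 log2 units and the median fall 0.92, while the median over all probe sets was 0.03. Among the probe sets naming 1 gene, 80 rose and 32 fell, which is 0.829% of 13513. In all 226 the overexpressor arrays did not overlap the wild-type arrays, but this holds for 58% of all probe sets tested. Among the 7193 probe sets whose average over the 6 arrays reached 6, tested alone, the split was 101 higher and 90 lower. Of 35 gene lists with a median described here, 29 had a median that moved by over 1.5 times with 1 array left out, most of them lists near 0, so medians are read as descriptions.

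**Figure D1:**
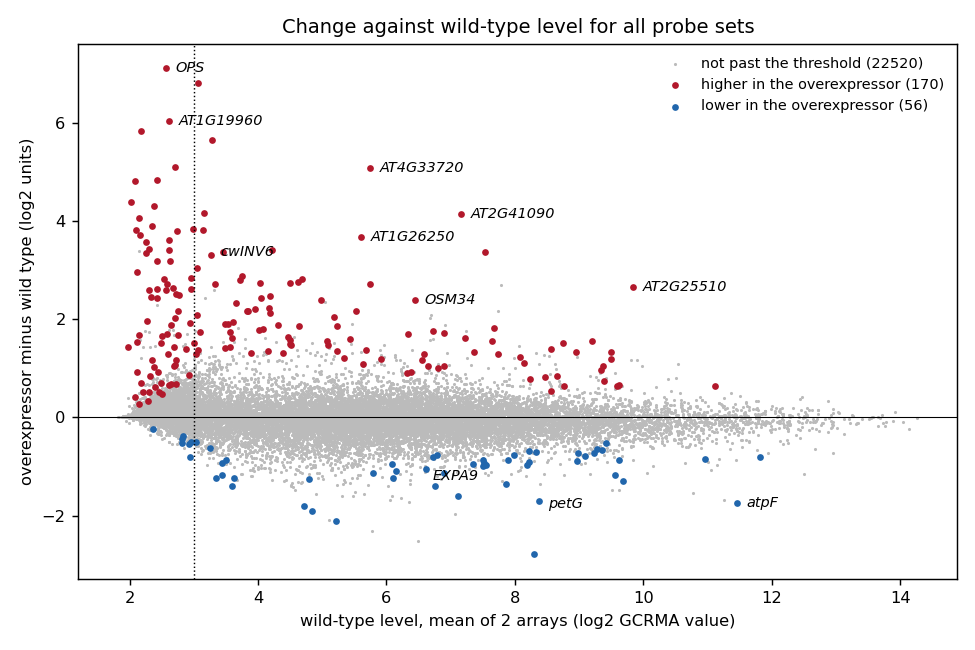
Change in the overexpressor (overexpressor minus wild type, log2 units) against the wild-type level (mean of 2 arrays, log2 GCRMA value) for 22746 probe sets. Red points are the 170 probe sets that were higher and blue points the 56 that were lower at an adjusted p below 0.05, grey points did not pass, and the dotted line marks the level of 3. Among the large named rises, OPS and AT1G19960 start from wild-type means of 2.565 and 2.62, below the line. AT4G33720 and AT2G41090 start well above it, from 5.74 and 7.155. The falls stay within 2.79 log2 units.

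The count rests on which arrays enter. A fit without 1 array of a group takes the lone array left in it to vary like the other groups. A call kept in such a fit, most of all without overexpressor array 1, is therefore a weak check. Without overexpressor array 1 the test called 2647 probe sets and without overexpressor array 2 it called 222. Leaving out 1 array of wild type gave 91 without array 1 and 115 without array 2, and leaving out 1 of the mutant gave 57 and 55. Of the 112 called probe sets that name 1 gene, 19 kept an adjusted p below 0.05 whichever of the 6 arrays was left out, 18 of them rises.

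OPS itself rose. Its level was 2.66 and 2.47 on the wild-type arrays and 9.52 and 9.83 on the overexpressor arrays, with the mutant at 2.53 and 2.47. Both overexpressor arrays stand far above the other 4, which lie together near the floor, so the transcript checks the label of the overexpressor. The difference was 7.11 log2 units (SE 0.19, adjusted p = 0.000367), and its size is bounded by the wild-type level.

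Among transcripts of secreted proteins of the pathogenesis-related classes, a few members rose strongly and most did not pass. Of 19 probe sets for PR-1-like CAP proteins, the family of the salicylic acid marker PR-1, 2 rose and 1 fell, with a list median of 0.05. PR-1 itself is not among the 19. Of all probe sets tested, 0.747% rose and 0.246% fell, and each family count here and below is to be set beside these shares. The families were listed with earlier results of these data known, so a count above these shares is not a test of the family. AT4G33720 read 5.75 and 5.73 in wild type against 10.90 and 10.74 in the overexpressor, a rise of 5.08 (SE 0.20, adjusted p = 0.000688). Its neighbour on the chromosome, AT4G33710, read 2.10 on both wild-type arrays and 6.19 and 5.66 in the overexpressor, a rise of 3.83 (SE 0.19, adjusted p = 0.00141). The groups are far apart for both genes, and the mutant lay near wild type for AT4G33710 (2.12 and 2.09) and between the groups for AT4G33720 (7.13 and 6.53). AT2G19970 moved the other way, from 4.79 and 4.80 to 3.58 and 3.50, a fall by 1.25 (SE 0.17, adjusted p = 0.0442). The 16 members that did not pass differed from wild type by -1.06 to 0.20.

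Chitinases, which cut the chitin of fungal walls, numbered 15 probe sets, of which 2 rose and 0 fell, with a median of 0.06. CHI read 2.43 and 2.79 in wild type against 6.24 and 6.22 in the overexpressor (difference 3.62, SE 0.19, adjusted p = 0.0015). AT2G43620 read 3.99 and 4.06 in wild type against 6.92 and 6.59 in the overexpressor (difference 2.73, SE 0.22, adjusted p = 0.00664). Each gene has both overexpressor arrays more than 2 log2 units above both wild-type arrays. The other 13 chitinases differed by -0.24 to 0.52, among them AT4G01700 at 0.52 (adjusted p = 0.24). Of 19 probe sets for thaumatin-like proteins, another pathogenesis-related class, OSM34 (osmotin) alone passed, at 6.12 and 6.77 in wild type against 8.93 and 8.75 in the overexpressor. That rise was 2.40 (SE 0.22, adjusted p = 0.0119), while the other members differed by -0.64 to 0.58.

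Leaving out wild-type array 1 raised the adjusted p of AT2G43620 to 0.0518, and OSM34 lost its call without either mutant array, with a highest adjusted p of 0.0945. AT2G19970 lost its call without any 1 array other than overexpressor array 1, with a highest adjusted p of 0.212. AT4G33720, AT4G33710 and CHI kept theirs in every such fit.

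Genes of the cell wall that act in cross-linking rose in part. Extensins are structural wall glycoproteins that class III peroxidases can couple to each other. Of 11 probe sets for extensins and extensin-like proteins, 2 rose and 0 fell, and the list median was 0.80. In 10 of the 11 the difference was above 0, against 60.4% of all probe sets and 91.2% of those near the floor in wild type, where 5 of the 11 lie. AT1G26250 rose from 5.45 and 5.77 to 9.42 and 9.16 (difference 3.68, SE 0.19, adjusted p = 0.00151). Its neighbour AT1G26240 rose from 2.43 and 2.41 to 5.42 and 4.66 (difference 2.62, SE 0.25, adjusted p = 0.0139). Wild type of the second gene was at the floor on both arrays, and its call was lost without either wild-type array or either mutant array (highest adjusted p 0.103). Just short of the threshold lay AT3G54580 at 1.50 (adjusted p = 0.0519), AT5G06630 at 0.80 (adjusted p = 0.0722) and HRGP1 at 0.81 (adjusted p = 0.0786). The probe sets of AT5G06630, HRGP1, AT1G23720 (0.755) and AT4G08410 (0.515) carry the suffix _x_at, unlike the other members. Whether their probes read more than 1 extensin gene was not tested, so they may not be separate members of the count and median.

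Of 55 probe sets for class III peroxidases, secreted enzymes that use hydrogen peroxide, 2 rose and 0 fell, and the median was -0.04. The shares of all probe sets were 0.747% and 0.246%. AT3G03670 was at 2.09 on both wild-type arrays and at 7.18 and 6.61 in the overexpressor. The difference was 4.81 log2 units (SE 0.22, adjusted p = 0.000904), with the mutant also at the floor (2.10 and 2.08). AT5G19890 read 6.48 and 6.69 in wild type against 8.11 and 7.64 in the overexpressor, a rise of 1.29 (SE 0.18, adjusted p = 0.0473). That call was lost without either array of wild type or of the mutant (highest adjusted p 0.215). The members that did not pass ran from -1.63 to 1.32, with AT5G64120 at the upper end (adjusted p = 0.0635) and AT2G18980 at -0.71 (adjusted p = 0.0876).

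A few receptor kinases of the cell surface rose. Of 33 probe sets for malectin-like leucine-rich repeat kinases, 3 rose and 0 fell, with a median of 0.10 (0.05 to 0.15 with 1 array left out). A difference above 0 was found in 31 of the 33, against 60.4% of all probe sets and 91.2% of those near the floor in wild type, where 19 of the 33 lie. AT5G59680 read 3.96 and 4.37 in wild type against 6.56 and 6.24 in the overexpressor (difference 2.24, SE 0.22, adjusted p = 0.0149), and its neighbour AT5G59670 read 3.21 and 2.89 in wild type against 5.00 and 5.27 in the overexpressor (difference 2.09, SE 0.22, adjusted p = 0.0198). AT1G51890 rose by 1.90 (SE 0.27, adjusted p = 0.0479). AT2G28990 at 0.81 and AT1G51790 at 0.88 did not pass (adjusted p = 0.138 and 0.186).

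Wall-associated kinases and their relatives, which reach into the pectin of the wall, numbered 14 probe sets with a median of 0.27, and 2 rose. AT1G16260 rose from 2.48 and 2.51 to 3.69 and 4.35 (difference 1.53, adjusted p = 0.0442) and AT1G66880 from 4.14 and 4.17 to 5.61 and 5.42 (difference 1.36, adjusted p = 0.0406). AT1G69730 was 1.59 higher and did not pass (adjusted p = 0.106). Every call of these 5 kinase genes that rose was lost without at least 1 wild-type array and without either mutant array.

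Of 59 listed genes for secreted proteins with the cysteine-rich repeat, and for the receptor kinases that share it, 8 could be measured by name. Their median was 0.06, and 2 rose. AT5G41280 read 3.42 and 3.50 in wild type against 6.89 and 6.76 in the overexpressor, a rise of 3.37 (SE 0.17, adjusted p = 0.00131). AT3G22060 read 4.38 and 4.98 in wild type against 7.49 and 7.50 in the overexpressor, a rise of 2.82 (SE 0.24, adjusted p = 0.00864). The mutant arrays of AT3G22060, at 6.18 and 5.78, lay between the groups, and without either of them its adjusted p rose to at most 0.0567.

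Members of further gene families, named here from general knowledge of locus codes, included rises from the floor. Of 12 probe sets for ankyrin-repeat proteins related to ACD6, a membrane protein that promotes salicylic acid signalling, 2 rose and 0 fell, with a median of 0.07. AT1G10340 read 2.21 and 2.48 in wild type against 6.16 and 6.31 in the overexpressor, a rise of 3.89 (SE 0.17, adjusted p = 0.000762). AT4G14390 read 2.17 and 2.07 in wild type against 4.02 and 3.31 in the overexpressor, a rise of 1.55 (adjusted p = 0.0459, and at most 0.19 with 1 array of wild type or of the mutant left out). Wild type and mutant lie together near the floor for both genes. Of 14 BCS1-type AAA ATPases, 1 rose: AT3G28510 was at 2.75 and 2.73 in wild type against 6.87 and 6.20 in the overexpressor, a difference of 3.80 (SE 0.28, adjusted p = 0.00502). The other 13 differed by -0.34 to 0.61, and the median of the list was 0.25 (0.11 without overexpressor array 2).

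The 8 measured genes of a cluster on chromosome 5 for small proteins with a heavy-metal-associated domain had a median of 0.63. All 8 lay near the floor in wild type, and in all 8 both overexpressor arrays were above both wild-type arrays, which holds for 71.7% of the probe sets near the floor and 39.5% of all. AT5G52760 rose from 2.63 and 2.61 to 6.62 and 5.43 (difference 3.41, SE 0.38, adjusted p = 0.0237). Its neighbour AT5G52750 rose from 2.79 and 2.74 to 5.24 and 5.28 (difference 2.50, SE 0.20, adjusted p = 0.00647). The 6 others stood 0.26 to 0.89 higher and did not pass, with AT5G52720 nearest the threshold (0.89, adjusted p = 0.0698). Both calls were lost without either wild-type array, with a highest adjusted p of 0.133 for AT5G52760 and 0.0614 for AT5G52750, and the call of AT5G52760 also without either mutant array. AT3G07600, of the same protein class but on chromosome 3, read 3.75 and 3.69 in wild type against 6.55 and 6.50 in the overexpressor (difference 2.81, SE 0.17, adjusted p = 0.00249), and it held its call without any 1 array.

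Calcium sensors of the calmodulin-like class rose in 3 of 8 probe sets and fell in 0, with a median of 0.05. AT2G41090 was at 7.33 and 6.98 in wild type, 8.17 and 8.47 in the mutant and 11.23 and 11.38 in the overexpressor. The overexpressor arrays lie more than 3 log2 units above both wild-type arrays, and the rise was 4.15 (SE 0.16, adjusted p = 0.000688). CML41 rose from 2.52 and 2.48 to 4.02 and 4.29 (difference 1.66, adjusted p = 0.00412) and CML43 from 2.71 and 2.66 to 3.81 and 3.65 (difference 1.05, adjusted p = 0.0132). CML37, CML30, CML42 and CML38 differed by -0.40 to 0.23 and did not pass. CML41 lost its call without either mutant array (highest adjusted p 0.0525) and CML43 without any 1 array of wild type or mutant (highest 0.11).

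Of the 6 WRKY transcription factors that the table names, 1 rose and 0 fell, with a median of 0.50. Leaving out overexpressor array 2 gave a median of 0.30, and leaving out array 1 gave 0.66. WRKY53, a regulator of leaf senescence and defence, read 4.54 and 4.38 in wild type against 6.02 and 6.19 in the overexpressor, a rise of 1.65 (SE 0.21, adjusted p = 0.0385). WRKY47 was 1.11 higher (adjusted p = 0.0698) and WRKY22 0.78 higher (adjusted p = 0.451). GRX480, a glutaredoxin induced by salicylic acid that binds TGA factors, rose from 2.77 and 2.74 to 4.44 and 4.41 (difference 1.67, SE 0.16, adjusted p = 0.0156). SAG101, a partner of the immune regulator EDS1, was 0.46 higher and did not pass (adjusted p = 0.366). WRKY53 and SAG101 were the only 2 of 41 listed genes of salicylic acid and pathogenesis defence that could be measured by name. Of 23 listed jasmonate genes, 3 could be measured by name and 0 passed, with PDF1.2 0.48 higher (adjusted p = 0.326). WRKY53 lost its call without any 1 array other than overexpressor array 1 (highest adjusted p 0.157) and GRX480 without either wild-type array (highest 0.114).

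**Figure D2:**
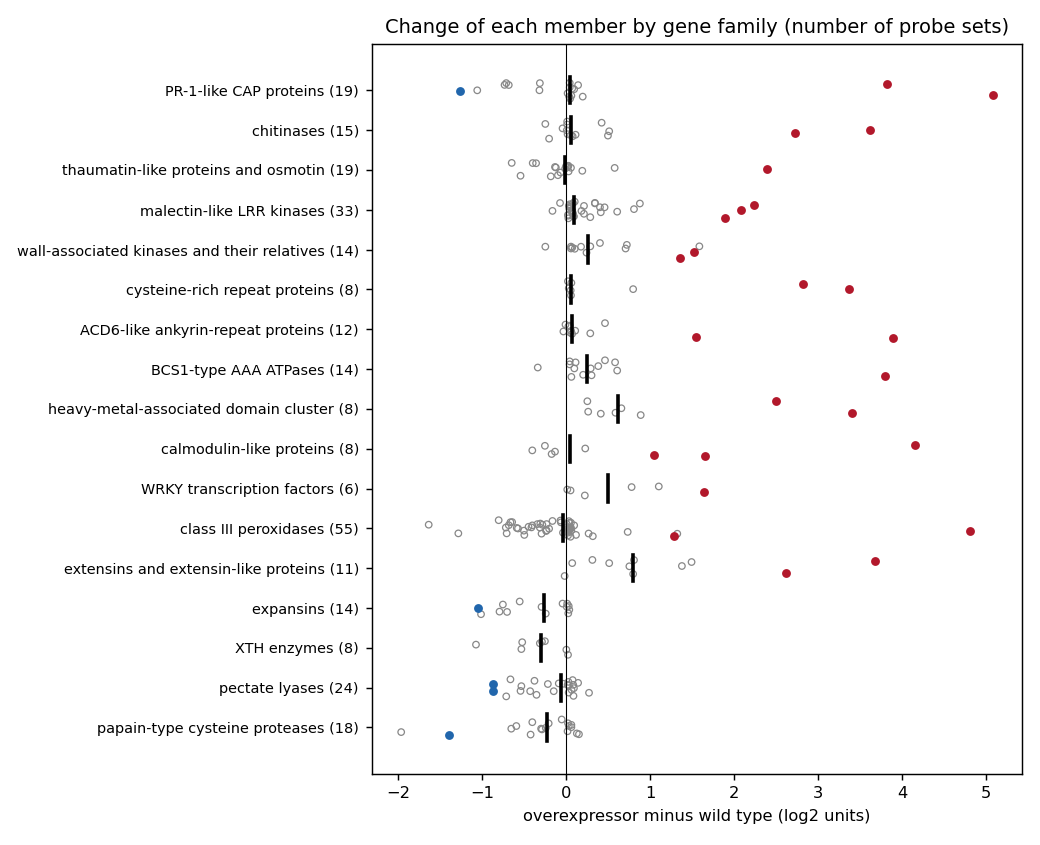
Change in the overexpressor (log2 units) of each probe set in 17 gene families, with the number of probe sets in parentheses. Red points rose and blue points fell at an adjusted p below 0.05, open points did not pass, and black bars are family medians, which lie between -0.30 and 0.80. In most families 1 to 3 members stand apart while the rest lie around 0.

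Genes of sugar and secondary metabolism gave single rises, where 0.747% of all probe sets rose. The cell wall invertase gene cwINV6, of a family that splits sucrose outside the cell, read 3.27 on both wild-type arrays and 6.76 and 6.41 in the overexpressor. The mutant arrays, at 2.87 and 3.28, lay with wild type, and the rise was 3.32 (SE 0.23, adjusted p = 0.00384), held without any 1 array. The other 14 probe sets for SWEET sugar transporters and wall invertases differed by -0.51 to 0.24, including SWEET11, which exports sucrose for phloem loading, at -0.29 (adjusted p = 0.364). UGT73D1 was the 1 of 43 UDP-glycosyltransferases to pass, at 3.33 and 3.97 in wild type against 6.20 and 5.76 in the overexpressor (difference 2.33, SE 0.29, adjusted p = 0.0345). CYP71B36 was the 1 of 26 cytochrome P450s to pass (difference 1.41, adjusted p = 0.0262), and CYP71B23 was 1.32 higher at an adjusted p of 0.0533. PPDK, which makes phosphoenolpyruvate from pyruvate, rose from 3.95 and 4.42 to 6.24 and 6.39 (difference 2.13, SE 0.19, adjusted p = 0.0119), and both mutant arrays were likewise at 6.23. UGT73D1 and CYP71B36 lost their calls without any 1 array other than overexpressor array 1 (highest adjusted p 0.14 and 0.175), and PPDK without overexpressor array 2 or either mutant array (highest 0.0945).

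Several of the 25 largest named rises are in genes without a family given here. AT1G19960 read 2.63 and 2.61 in wild type, 2.87 and 2.74 in the mutant and 8.79 and 8.53 in the overexpressor, a rise of 6.04 (SE 0.18, adjusted p = 0.000379) whose size, like that of the other rises from the floor, is bounded by the wild-type level. AT2G25510 started from a high level, 10.26 and 9.41 in wild type, and reached 12.38 and 12.60 (difference 2.66, SE 0.27, adjusted p = 0.0168). The wild-type arrays of AT2G25510 lie well apart, though both below the overexpressor, and the call was lost without overexpressor array 2 or either mutant array (highest adjusted p 0.111). AT3G60420 read 3.22 and 3.08 in wild type, 2.37 and 2.39 in the mutant and 6.85 and 7.08 in the overexpressor, a rise of 3.82 (SE 0.18, adjusted p = 0.00105). A further probe set of AT3G60420 stood at 2.45 and 2.42 in wild type against 2.47 and 2.54 in the overexpressor, so the 2 probe sets of this gene disagree. AT1G13470 rose from 3.09 and 3.02 to 6.07 and 6.12 (difference 3.04, adjusted p = 0.00157).

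Of the others, AT3G57950 rose by 2.82, AT5G22555 by 2.63 and AT1G72060 by 2.62 (adjusted p = 0.00805, 0.0086 and 0.00575). The calls of the first 2 were lost without any 1 array of wild type or mutant (highest adjusted p 0.0698 and 0.0775) and that of AT1G72060 without either mutant array (highest 0.0618). AT2G30670, of the short-chain dehydrogenases, read 2.31 and 1.98 in wild type, 2.94 and 3.14 in the mutant and 6.55 and 5.85 in the overexpressor. Its rise of 4.06 (SE 0.28, adjusted p = 0.00382) held without any 1 array.

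**Figure D3:**
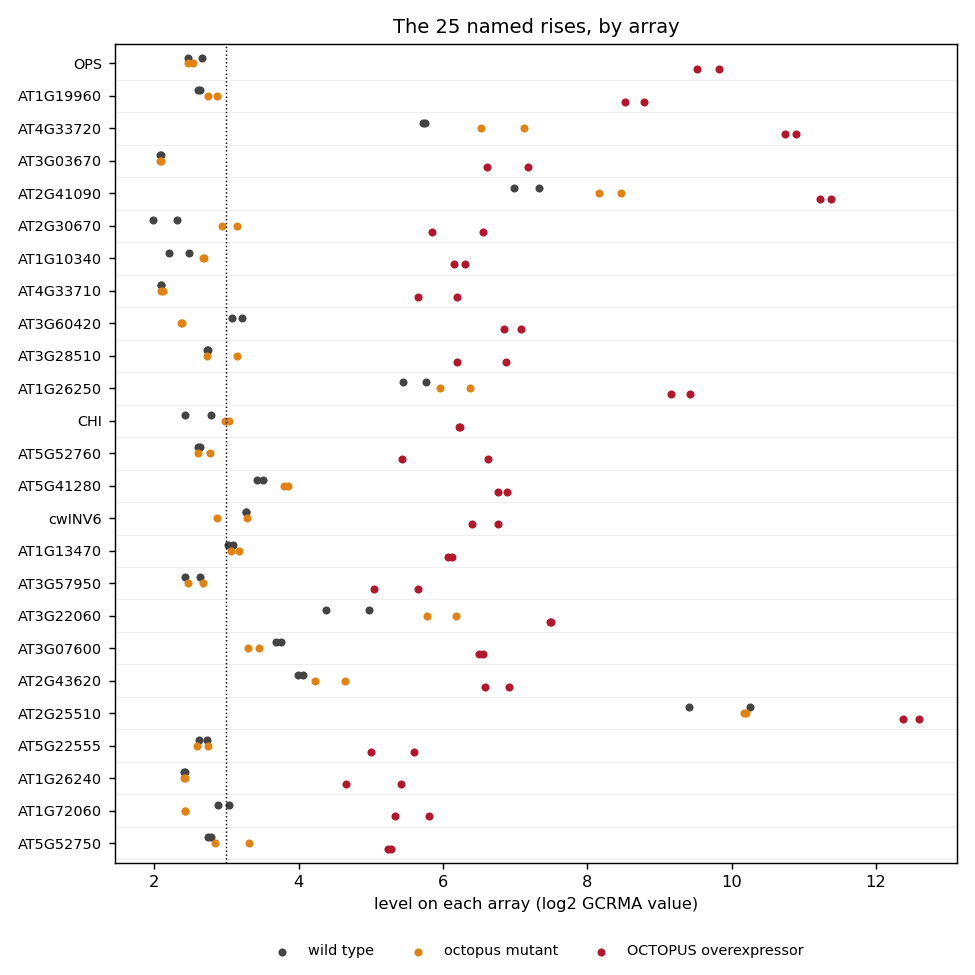
Level on each array (log2 GCRMA value) of the 25 largest named rises, with 2 points each for wild type, the octopus mutant and the OCTOPUS overexpressor, and a dotted line at the level of 3. In every gene both overexpressor points lie to the right of both wild-type points, which the choice of these genes required. Each mutant point lies to the left of both overexpressor points, on either side of wild type or among its points.

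Transcripts near the floor in wild type made up 40.6% of the rises, against 34.7% of the probe sets tested. Both wild-type arrays were below 3 for 7893 probe sets. Of these, 69 rose (0.874%) and 6 fell (0.076%), against 101 rises (0.68%) and 50 falls (0.337%) among the 14853 others. In 42 of the 69 both overexpressor arrays reached at least 4, in 27 at least 5 and in 12 at least 6, while in 6 both were still below 3. The mutant was also below 3 on both arrays in 63 of the 69. The 30 that name 1 gene include OPS, AT1G19960, the peroxidase AT3G03670, AT1G10340, AT4G33710, AT3G28510 and CHI, described above, each with both overexpressor arrays above 5.

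The level of the floor itself differed between arrays. Among probe sets with a wild-type mean between 2.5 and 3, the median of overexpressor array 2 was 0.195 above the wild-type mean and that of array 1 was 0.04 above it. Without overexpressor array 1 the near-floor rises numbered 1697 and without array 2 they numbered 151, against 33 and 35 without either wild-type array and 33 and 32 without either mutant array. Small near-floor rises such as AT4G26120, from 2.18 on both wild-type arrays to 2.86 and 2.90 (difference 0.70, adjusted p = 0.0015), and AT1G33840, from 2.13 and 2.11 to 3.14 and 2.97 (difference 0.94, adjusted p = 0.00346), passed with standard errors of 0.04 and 0.06. These 2 genes were picked out after their values were seen, and both kept their calls without any 1 array. Among the 15 named near-floor rises of highest level, those not yet given are AT4G04990 alone, which read 2.93 and 2.95 in wild type against 5.07 and 4.64 in the overexpressor (difference 1.92, adjusted p = 0.0142, and at most 0.109 without 1 array of wild type or mutant).

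The falls were smaller than the rises, and 3 of the 15 largest named ones were plastid-encoded. Of 33 probe sets for plastid genes of the ATP synthase, the photosystems, the cytochrome b6f complex and Rubisco, 3 fell and 0 rose, with a median of -0.44. The shares of all probe sets were 0.246% and 0.747%. A difference below 0 was found in 30 of the 33, against 39.3% of all probe sets. That share includes probe sets near the floor in wild type, where 91.2% lie above 0 and only 1 of the 33 lies. At wild-type means of 8 to 10, the median difference from the wild-type mean over all probe sets was -0.04 on overexpressor array 1 and -0.095 on array 2. The gene atpF, for a subunit of the chloroplast ATP synthase, read 11.70 and 11.20 in wild type, 10.18 and 10.30 in the mutant and 9.90 and 9.52 in the overexpressor, a fall by 1.74 (SE 0.20, adjusted p = 0.0254). The gene petG, for a small subunit of the cytochrome b6f complex, went from 8.45 and 8.29 to 6.91 and 6.42, a fall by 1.70 (SE 0.20, adjusted p = 0.0262). The gene psbD, for the D2 protein of the photosystem II core, went from 9.72 and 9.39 to 8.44 and 8.34, a fall by 1.17 (SE 0.13, adjusted p = 0.0235). In all 3 the overexpressor arrays are the lowest and the mutant arrays, measured against the same wild type, lie below wild type too.

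Just short of passing were atpH at -1.69 (adjusted p = 0.0575) and psbE at -0.87 (adjusted p = 0.0614). The wild-type arrays disagreed on many of these genes: psaA read 11.25 and 10.31 in wild type against 9.39 and 9.11 in the overexpressor, and rbcL, the large subunit of Rubisco, 8.45 and 7.43 against 6.84 and 6.75 (adjusted p = 0.0987 and 0.192). Without wild-type array 1, the higher of the 2, the list median was -0.05, and the calls of atpF, petG and psbD were lost, as they were without overexpressor array 2 or either mutant array (highest adjusted p 0.134, 0.153 and 0.118). The other 36 plastid-encoded probe sets had a median of -0.22 (-0.62 without wild-type array 2 and 0.04 without wild-type array 1). A difference below 0 was found in 30 of the 36, against 39.3% of all probe sets, a share that again includes the many near the floor, where only 2 of the 36 lie. In limma 0 passed, the nearest being ycf4 at -1.13 (adjusted p = 0.0639) and cemA at -0.85 (adjusted p = 0.0722). The 5 nuclear genes for photosystem and antenna proteins that the table names had a median of 0.11 and 0 passed, with LHCB4.3 at 0.53 (adjusted p = 0.341) and PSBW at -0.11 (adjusted p = 0.528), and without wild-type array 1 that median was -0.07. The sources used here do not say how transcripts without a poly(A) tail were carried through the labelling.

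**Figure D4:**
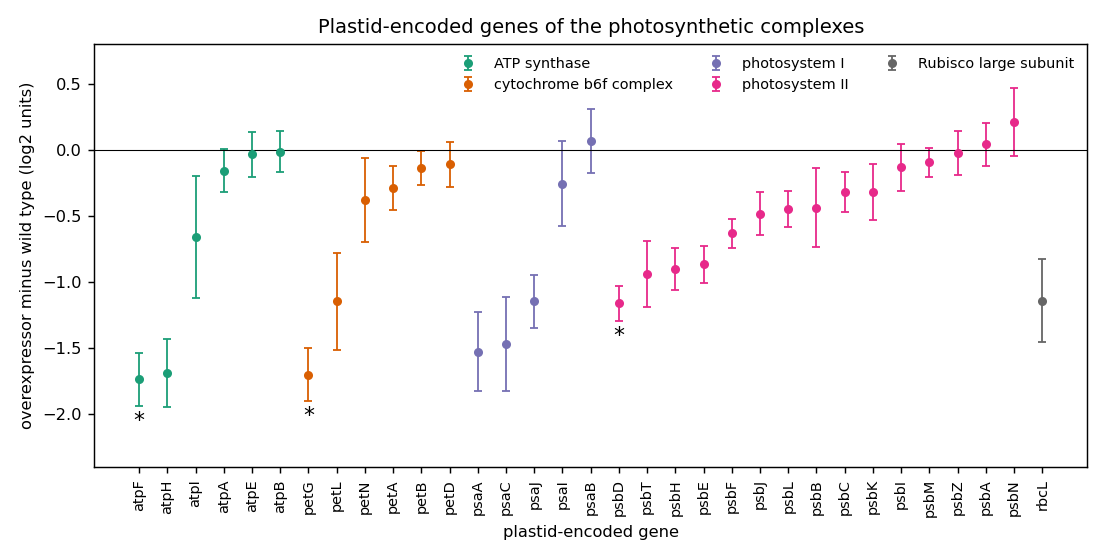
Change in the overexpressor (log2 units) of the 33 plastid-encoded genes of the photosynthetic complexes and of Rubisco, grouped by complex in colour. Points are differences from wild type with bars of 1 standard error of the limma fit (2 arrays a group), and stars mark atpF, petG and psbD, which passed an adjusted p below 0.05. Most points lie below 0, down to -1.74.

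Wall-loosening genes lay lower in part. Of 14 expansin probe sets, 1 fell and 0 rose, with a median of -0.27 (-0.44 to -0.13 with 1 array left out). EXPA9 read 6.62 on both wild-type arrays, 6.79 and 6.57 in the mutant and 5.49 and 5.66 in the overexpressor, a fall by 1.05 (SE 0.13, adjusted p = 0.0353). EXPA4 differed by -1.01 (adjusted p = 0.145) and EXPB3 by -0.75 (adjusted p = 0.166). Of 8 XTH enzymes, which cut and rejoin xyloglucan, limma called 0 at an adjusted p below 0.05, with XTH19 at -1.07 (adjusted p = 0.0676), XTH18 at -0.52 (adjusted p = 0.224) and a median of -0.30. Without wild-type array 1 that median was -0.13 and without wild-type array 2 it was -0.52. Of 24 genes listed as induced by brassinosteroids in growth, only 6 could be measured by name, most of them in these 2 families, and 0 passed. The median of the 6 was -0.42. It was -0.68 without wild-type array 1 and -0.25 without wild-type array 2.

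Of 24 pectate lyase probe sets, for enzymes that cut pectin, 2 fell and 0 rose, against 0.246% and 0.747% of all probe sets. AT4G13210 went from 3.44 and 3.57 to 2.69 and 2.58 (fall by 0.87, adjusted p = 0.0188) and AT1G04680 from 7.92 and 7.86 to 7.16 and 6.89 (fall by 0.87, adjusted p = 0.0459). The list median was -0.06 (-0.08 to 0.01 with 1 array left out). The calls of EXPA9, AT4G13210 and AT1G04680 were lost without any 1 array other than overexpressor array 1, with highest adjusted p of 0.18, 0.107 and 0.215.

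Of 18 papain-type cysteine proteases 1 fell, CP1, from 6.48 and 7.03 to 5.40 and 5.32 (fall by 1.40, SE 0.19, adjusted p = 0.0451), with the mutant at 7.44 and 7.55 on the other side of wild type. AT1G29090 differed by -1.96 and did not pass (adjusted p = 0.101), its wild-type arrays being at 6.51 and 7.62. Among 26 probe sets for BAHD-type acyltransferases 2 fell and 1 rose. GLC (GLAUCE) went from 3.38 and 3.30 to 2.10 and 2.12, with its mutant arrays at 2.11 and 2.09. In 15 of the 56 falls, GLC among them, both overexpressor arrays were below 3. The GLC fall was 1.23 (SE 0.05, adjusted p = 0.000688), and its size is bounded by the floor. It was the 1 fall of 32 that held without any 1 array, but a further probe set of GLC differed by -0.51 (adjusted p = 0.417). AT5G47980 fell by 0.51 and AT5G42830 rose by 1.78 (adjusted p = 0.0262 and 0.021). CP1 lost its call without overexpressor array 2, wild-type array 2 or either mutant array (highest adjusted p 0.17), and AT5G47980 and AT5G42830 without any 1 array other than overexpressor array 1 (highest 0.155 and 0.126).

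The remaining large named falls have no family given here. AT1G01320 went from 4.79 and 4.90 to 3.19 and 2.71, a fall by 1.90 (SE 0.20, adjusted p = 0.0188), with the mutant at 3.08 and 3.15. Another probe set of AT1G01320 was 0.49 higher (adjusted p = 0.304), so its probe sets point opposite ways. AT4G01390 went from 7.14 and 7.10 to 5.62 and 5.43 (fall by 1.60, adjusted p = 0.0188) and AT5G24690 from 7.88 and 7.84 to 6.47 and 6.52 (fall by 1.37, adjusted p = 0.0086). AT1G67870, AT3G52640, AT4G16180, AT4G17280 and AT5G48760 fell by 1.30, 1.17, 1.08, 0.99 and 0.96 (adjusted p = 0.0385, 0.00647, 0.0435, 0.0442 and 0.0254). Further probe sets of AT5G24690, AT3G52640 and AT4G16180 differed by -0.27, -0.15 and -0.07 and did not pass. AT3G52640 lost its call without either mutant array, AT5G24690 without either wild-type array, and the other 6 without each of at least 4 arrays, overexpressor array 1 never among them, at highest adjusted p of 0.068 for AT3G52640, 0.0738 for AT5G24690 and 0.111 to 0.222 for the others.

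**Figure D5:**
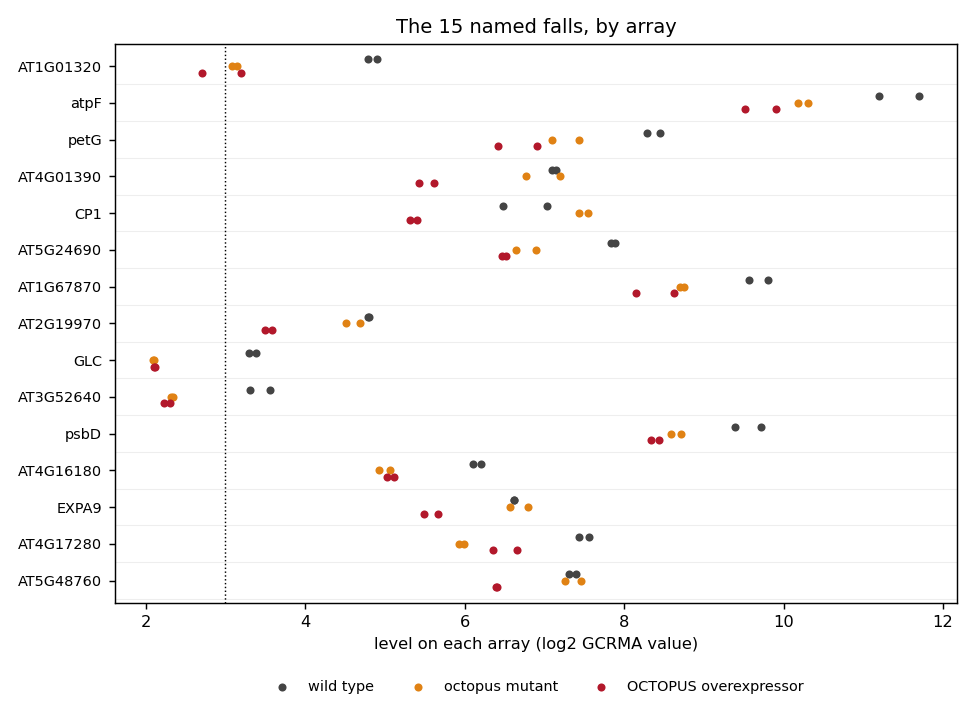
Level on each array (log2 GCRMA value) of the 15 largest named falls, with 2 points each for wild type, the octopus mutant and the OCTOPUS overexpressor, and a dotted line at the level of 3. In every gene both overexpressor points lie to the left of both wild-type points, which the choice of these genes required. The position of the mutant points differs from gene to gene, from left of the overexpressor for AT4G17280 to right of wild type for CP1.

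Vascular genes that could be measured by name, other than OPS, showed no change that passed. Of the phloem list, 2 of 26 genes could be measured by name, OPS and SWEET11. Of 23 listed genes of the procambium and of vascular patterning, 5 could be measured by name. They had a median of -0.12 and 0 passed in limma, with MOL1, a receptor-like kinase that represses cambium activity, at -0.48 (adjusted p = 0.335). PHV, a homeodomain factor of vascular polarity, was at -0.29 (adjusted p = 0.443) and CLE41, a precursor of the peptide TDIF, at 0.13 (adjusted p = 0.734). Of 23 listed xylem genes 2 could be measured by name and neither passed, with IRX15 at the floor. The 7 auxin-responsive genes measured, of 22 listed, had a median of 0.03 and 0 passed, with GH3.3 at 0.18 (adjusted p = 0.535). The 5 cold and abscisic acid genes measured, of 21 listed, had a median of -0.48 and 0 passed, with COR15B at -1.32 (adjusted p = 0.221) and COR47 at -0.48 (adjusted p = 0.25). The 12 glutathione S-transferases had a median of -0.11, and 0 passed. Likewise 0 passed of the 4 ATG8 genes of autophagy. The same held for the genes that could be measured by name in further lists. These were 4 of 20 anthocyanin genes, 3 of 21 iron and zinc genes, 3 of 12 root markers and 3 of 9 genes of the stomatal lineage. They were also 2 of 15 leaf markers, 1 of 16 clock genes, and CLV3 alone of 21 floral, seed and meristem markers. FMA, a regulator of guard cells, was at -0.49 (adjusted p = 0.385) and ATG8B at 0.37 (adjusted p = 0.384). A p that misses the threshold with 2 arrays a group does not show that these levels were equal.

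Gene position gave 4 pairs of adjacent genes in which both rose, AT1G26240 with AT1G26250, AT4G33710 with AT4G33720, AT5G52750 with AT5G52760 and AT5G59670 with AT5G59680. The genes of a pair belong to the same family in each case, and whether probes of one gene also read its neighbour was not tested.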

How the data were processed

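Per the labels' protocols, whole-plant RNA was amplified, biotin-labelled and put on ATH1 arrays of Affymetrix. The deposited values hold 1 log2 number for each probe set on each array, computed with GCRMA (no version named) per the submitters' processing notes. The log2 scale was read from the values, and no source used here says which arrays were normalised together. Arrays give no read depth, and their number limits the precision.

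The 22746 probe sets that are not controls were tested on these values in R 4.3.3 by limma 3.58.1, using lmFit and a trended eBayes, two-sided, with Benjamini-Hochberg adjustment over all of them and no filter on low values. All 6 arrays entered as 3 group means, with 3 residual and 2.84 prior degrees of freedom. Errors are standard errors of that fit. A probe set passed at an adjusted p below 0.05, and "near the floor" means below 3 on both arrays of wild type.

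Probe sets were named from the platform's gene table, brought up to date through RefSeq's TAIR10.1 gene numbers (13436 of 13513 matched). No coordinates or sequences are printed. Family names of genes known here by locus code alone come from general knowledge of Arabidopsis gene families. Named are OPS, the 25 largest rises and 15 largest falls that passed on a probe set of 1 gene without overlap of the groups, the 15 near-floor rises of highest level, and up to 5 members of each gene list with the smallest p. The members, the lists and the rule were chosen with earlier results of these data known. The 41 lists are described by counts and medians without a set test. Alternatives were a filter at a mean of 4 or of 6, the 4 compared arrays alone, quantile normalisation, no trend, the replicate number as a block, each array left out, and probe sets printed to at most 2 decimals.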

Additional observations from a re-analysis of the deposited data

How the results depend on the processing

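The 226 calls became 53 with only the 4 arrays compared (29 near-floor rises in place of 69) and 118 with the replicate number as a block, which leaves 2 residual degrees of freedom. The numbers are not shown to pair the samples, since wild-type and overexpressor arrays of the same number deviated from their group means with a correlation of 0.08. Exchanging the mutant numbers in that block, chosen after seeing the data because mutant and overexpressor arrays of the same number deviated in opposite directions (r = -0.32), gave 279. A filter at a mean of 4 left 12363 probe sets, of which 313 passed, 184 of them higher and 129 lower, and 7 near-floor rises. It shared 138 calls with the unfiltered test, and 62 of the 69 near-floor rises lie under it. A filter at 6 gave 191 calls, 101 higher and 90 lower, and left 0 near-floor rises, since it removes probe sets of that level. With 1 array left out, the calls ran from 55 to 2647 and the near-floor rises from 32 to 1697. The highest count came without overexpressor array 1, and that fit takes the lone array to vary like the other groups. Of the 42 named genes tested under these settings, 0 changed sign, and in 137 of 543 fits the call was lost. These 42 are the largest rises and falls and the near-floor rises of highest level only. They leave out called list members outside those ranks, such as OSM34, WRKY53 and PPDK, whose lost calls are given above. Of 35 list medians, 15 changed sign under at least 1 setting, 9 of them with an array left out, and these medians lay between -0.22 and 0.11. They include the PR-1-like (-0.68) and calmodulin-like proteins (-0.17) at a mean of 4, where few members are left, and, without wild-type array 1, the nuclear photosystem genes (-0.07), the other plastid genes (0.04), the ATG8 genes (-0.03) and the iron and zinc genes (-0.02). Quantile normalisation, no trend and the limit on decimals kept the count of calls within 1.5 times. The cause of these shifts was not tested.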
